A study of Mus musculus with 2 samples.

Results

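The genes described here are 7 enzymes and regulators of glucose and fructose use in the liver, Pck1, G6pc, Fbp1, Pcx, Gckr, Pklr and Khk, chosen by name out of the 19059 genes of the probe set. All 7 were measured in both libraries. There was 1 library for each genotype, made from livers of 27-week-old mice that had been given a high-fat, high-sugar diet (HF/HSD) from 7 weeks of age, for 20 weeks. AEG-1fl/fl mice carry floxed alleles of Mtdh, the gene of AEG-1, and AEG-1ΔMAC mice are littermates in which a Lyz2-driven Cre deletes the gene from macrophages and other myeloid cells. Hepatocytes are therefore not the cells in which the allele is deleted in either genotype. Livers were fixed and dissociated, and single cells were profiled by probe pairs that bind each gene's transcripts and are counted per cell (10x Genomics). Whether a library pools several livers is not given in the sources used here.

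Gluconeogenesis and glycolysis run along the same chain of sugars and differ at a few one-way steps, and the members sit at or next to these steps. Pcx, pyruvate carboxylase, and Pck1, cytosolic phosphoenolpyruvate carboxykinase, together bypass the last step of glycolysis. Fbp1, fructose-1,6-bisphosphatase, bypasses the phosphofructokinase step, and G6pc, the catalytic subunit of glucose-6-phosphatase, releases free glucose from the hepatocyte. In the other direction, Pklr encodes the liver and red cell pyruvate kinase, which ends glycolysis. Gckr encodes an inhibitory regulatory protein of hepatic glycolysis and not an enzyme of it. Khk, ketohexokinase, phosphorylates dietary fructose, and triokinase (Tkfc) acts further along the route by which fructose enters the same chain. In the liver lobule, glucose release is known as a periportal function and glycolysis as a pericentral one. Transcription of Pck1 and G6pc is known to rise with glucagon and cyclic AMP and to fall with insulin, and that of Pklr to rise with carbohydrate through ChREBP, the product of Mlxipl.

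In GRCm38, the build of the files, Pck1 (ENSMUSG00000027513) lies on chromosome 2 from 173153048 to 173159273 and G6pc (ENSMUSG00000078650) on chromosome 11 from 101367561 to 101377903. Fbp1 (ENSMUSG00000069805) lies on chromosome 13 from 62864753 to 62888282 and Pcx (ENSMUSG00000024892) on chromosome 19 from 4510472 to 4621752. Gckr (ENSMUSG00000059434) and Khk (ENSMUSG00000029162) are both on chromosome 5, from 31297443 to 31327314 and from 30921431 to 30931248, and Pklr (ENSMUSG00000041237) is on chromosome 3 from 89136142 to 89146784. All 7 are protein-coding genes.

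The promoters of 3 members are shown because Pck1 had the steepest zonation of the group together with Fbp1, and G6pc and Pklr the lowest ratios between the libraries. They are the 250 bases before the RefSeq start site on the plus strand of GRCm38.p6, at chr2:173152823-173153072 for Pck1, chr11:101367466-101367715 for G6pc and chr3:89136373-89136622 for the downstream of the 2 start sites of Pklr. Capitals mark matches to the letters TTACGTNA (a form of the cyclic AMP response element), TATAAA (the TATA box) and, in Pklr, a form of the carbohydrate response element that ChREBP binds, searched on both strands.
Pck1: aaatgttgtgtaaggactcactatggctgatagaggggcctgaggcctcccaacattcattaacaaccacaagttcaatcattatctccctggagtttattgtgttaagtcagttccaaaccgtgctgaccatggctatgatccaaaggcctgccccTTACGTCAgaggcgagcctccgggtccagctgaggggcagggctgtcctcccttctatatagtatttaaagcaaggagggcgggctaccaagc
G6pc: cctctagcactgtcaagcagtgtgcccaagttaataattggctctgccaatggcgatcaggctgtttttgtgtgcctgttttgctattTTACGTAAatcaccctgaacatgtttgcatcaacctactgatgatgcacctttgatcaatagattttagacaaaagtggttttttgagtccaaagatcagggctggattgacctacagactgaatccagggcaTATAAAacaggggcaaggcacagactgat
Pklr: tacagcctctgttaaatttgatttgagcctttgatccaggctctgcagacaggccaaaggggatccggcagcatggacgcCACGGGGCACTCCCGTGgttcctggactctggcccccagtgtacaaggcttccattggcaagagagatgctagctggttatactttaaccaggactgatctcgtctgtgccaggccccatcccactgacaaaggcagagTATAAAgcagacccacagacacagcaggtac
The TTACGTNA form began at position -93 from the start site of Pck1 and at -162 from that of G6pc, and 0.788% of all 32851 promoters of this length held it. The carbohydrate response element form of Pklr began at position -170 and was held by 13 promoters, or 0.0396%. TATAAA was found in 12.4% of promoters. Of the 9 start sites listed for the 7 members, the short form TGACG of the cyclic AMP response element, which overlaps TTACGTCA on the other strand, was matched in Pck1 and Khk (17.8% of all promoters), CACGTG in Khk and in 1 of 2 start sites of Pcx (6.02%), and TGTTTAC, the FoxO core, in none of the members (3.17%). These matches describe letters and were not measured as bound sites.

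The libraries differed in ways that bear on every comparison between them. A minimum of 100 genes and a maximum of 10% mitochondrial counts per cell left 2571 cells in the library labelled AEG-1ΔMAC and 3508 in the library labelled AEG-1fl/fl, with medians of 12746 and 7682 counts per cell, and 10 cell barcodes occurred in both. Mtdh ran against the labels. In macrophage-like cells it had 114 counts per 1000000 counts of the class (CPM; 95% interval 103 to 126) in the library labelled AEG-1ΔMAC and 26.6 CPM (22.9 to 30.8) in the library labelled AEG-1fl/fl, so each library is named by its label throughout and every direction rests on the labels as deposited. The macrophage-like share was 11.9% with the label AEG-1ΔMAC and 21.1% with the label AEG-1fl/fl. Whether the Mtdh probes lie in the deleted part of the gene is not given in the sources used here. Each genotype had 1 library, so the genotypes were not tested against each other. All intervals are 95% intervals for counting error, exact Poisson for levels and Clopper-Pearson for ratios and shares, and do not cover the variation between mice.

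Cells were assigned to 9 classes by their marker genes. Hepatocyte-like cells numbered 1344 in the library labelled AEG-1ΔMAC and 1338 in the library labelled AEG-1fl/fl, and their counts summed to 64903751 and 67994585. A further 11.6% and 9.44% of all cells passed no gate, and 2.84% and 4.45% had markers of several classes. Hepatocyte-like cells had a median of 1418 and 1332 hepatocyte marker counts per 10000, against at most 4.63 per 10000 for the macrophage markers and 1.46 for any other list. Gckr in the library labelled AEG-1ΔMAC and G6pc in the library labelled AEG-1fl/fl were among the 10 genes with the highest fold in these cells over the others, with Nr1i3 and Mlxipl, while none of the 16 hepatocyte markers was, since those were counted in every class.

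All 7 members had their highest level in hepatocyte-like cells in both libraries, as did 8.24% of 10646 genes. The levels there, for the library labelled AEG-1ΔMAC and then the library labelled AEG-1fl/fl, were 2017 and 2517 CPM for Pck1, 1490 and 1276 CPM for Fbp1, and 800.3 and 872.9 CPM for Khk. Pcx had 446 and 503 CPM and Gckr 397 and 262 CPM. Pklr stood at 380.0 and 606 CPM and G6pc at 228 and 367 CPM. The number and efficiency of probes differ between genes, so levels are compared between cells and not between genes.

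The members were also counted in every other class, where hepatocyte RNA was present at large. In macrophage-like cells the 16 hepatocyte marker genes together reached 57.1% of their hepatocyte-like level in the library labelled AEG-1ΔMAC and 36.9% in the library labelled AEG-1fl/fl, and in endothelial cell-like cells 47.7% and 30.5%. A member at or below that share was treated as background and not read as expression in the class, which does not show that it was absent there. Pck1 reached 43.9% and 34.8% of its hepatocyte-like level in macrophage-like cells, below the marker list in both libraries, and Pcx 54.9% and 38.8%, close to it. Fbp1 reached 62.5% and 40.5% and Khk 62.8% and 40.4%, above the list. The highest of the 16 single markers stood at 63.9% and 39.8%, so neither gene was above each single marker beyond its counting interval.

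G6pc and Gckr were far less common outside hepatocyte-like cells than the hepatocyte markers. G6pc reached 34.2% and 25.4% of its hepatocyte-like level in macrophage-like cells, 20.7% and 23.3% in stellate cell-like cells and 18.8% and 10.6% in endothelial cell-like cells. Gckr reached 24.8% and 30.2%, 20.3% and 27.2%, and 13.6% and 16.5% in the same classes. In both of the last-named classes both genes lay below the lowest single hepatocyte marker in both libraries. Mlxipl, which is no member, was lower still, at 16.8% and 23.2% in macrophage-like cells and 5.88% and 5.76% in endothelial cell-like cells. These genes and the hepatocyte markers were thus not counted in 1 ratio across the classes.

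**Figure D1:**
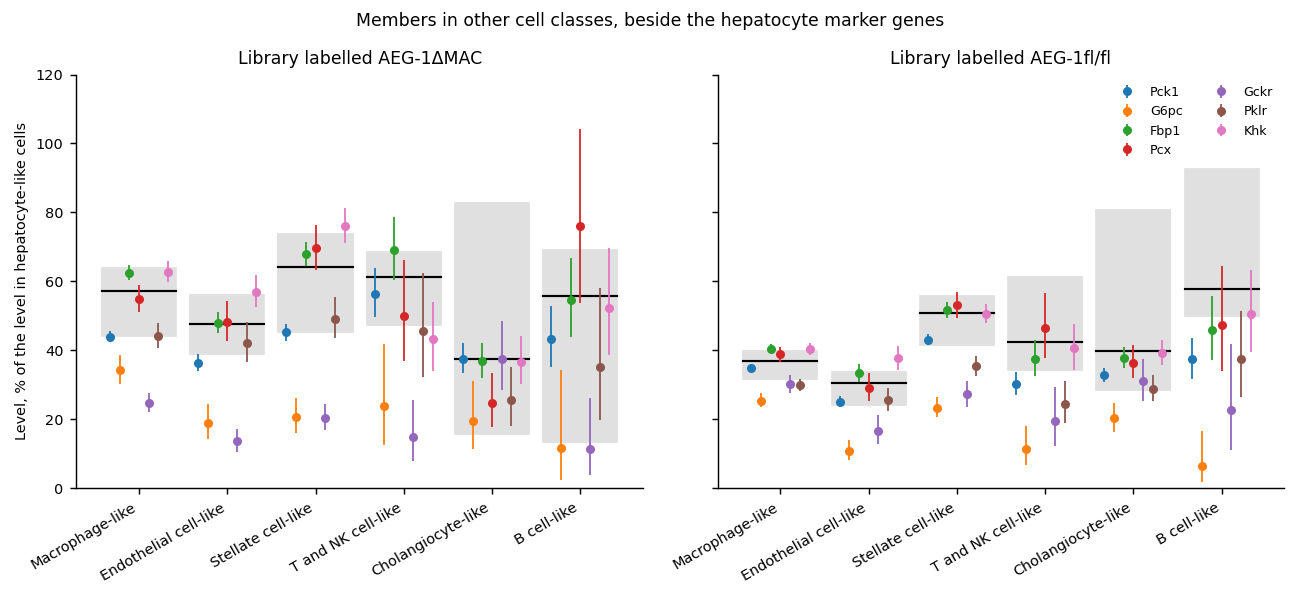
Level of each member in 6 cell classes as a percentage of its level in hepatocyte-like cells (vertical axis), with 95% intervals for counting error, in the library labelled AEG-1ΔMAC (left) and AEG-1fl/fl (right). The black line is the summed list of 16 hepatocyte markers and the grey box the range of the single markers. G6pc and Gckr sit below the line in every class except Gckr in cholangiocyte-like cells labelled AEG-1ΔMAC, where it lies on it.

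Khk stood above the marker list in endothelial cell-like cells of both libraries, at 57.0% (52.5 to 61.9) of its hepatocyte-like level against 47.7% for the list in the library labelled AEG-1ΔMAC and at 37.7% (34.3 to 41.3) against 30.5% in the library labelled AEG-1fl/fl. In the latter it was also above the highest single marker, at 33.8%. Dendritic cell-like cells labelled AEG-1fl/fl had Khk at 37.0% (27.9 to 48.1) against 18.9% for the list, from 32 cells and 55 counts. The 16 dendritic cell-like cells of the other library had only 16 counts. Dendritic cell-like and neutrophil-like cells, of which the library labelled AEG-1ΔMAC had 6, are too few for more.

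Isozymes that stand in for Pklr, Pck1 and G6pc in other tissues were higher in other classes, as were the hexokinases Hk1 and Hk2, which are isozymes of no member. Pkm, the pyruvate kinase of most other cells, had 8.38 and 8.78 CPM in hepatocyte-like cells and 141 and 203 CPM in macrophage-like cells. Hk1, a hexokinase of high glucose affinity, had 4.79 and 3.09 CPM in hepatocyte-like cells and 95.5 and 116 CPM in T and NK cell-like cells. Hk2, another such hexokinase, had 5.10 and 10.8 CPM in hepatocyte-like cells and 60.2 and 103 CPM in macrophage-like cells. Pck2, the mitochondrial counterpart of Pck1, had 10.3 and 11.9 CPM in hepatocyte-like cells, 178 and 125 CPM in B cell-like cells and 131 and 100 CPM in cholangiocyte-like cells. G6pc3, the glucose-6-phosphatase of other tissues, had 15.5 and 17.3 CPM in hepatocyte-like cells and 88.8 and 61.8 CPM in cholangiocyte-like cells. The glucose transporter Slc2a2 was at 110% and 67.3% of its hepatocyte-like level in cholangiocyte-like cells, where the marker list was at 37.5% and 39.8%. B cell-like cells numbered 37 and 54, T and NK cell-like cells 47 and 100, and cholangiocyte-like cells 29 and 94. The values of these classes thus rest on few cells.

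Within hepatocyte-like cells the members were unevenly spread from cell to cell. After each cell was thinned to 5000 counts, which left 1210 and 1147 cells and set shallower ones aside, Pck1 was counted in 96.5% and 96.9% of hepatocyte-like cells and Fbp1 in 98.6% and 97.5%. G6pc was counted in 52.0% (49.1 to 54.8) and 58.0% (55.1 to 60.9), and Gckr in 65.0% (62.3 to 67.7) and 59.0% (56.1 to 61.9). Without thinning, 79.2% and 79.0% of cells had a G6pc count and 86.5% and 79.8% a Gckr count, at median depths of 25140 and 22990 counts. In macrophage-like cells thinned alike, whose median depths were 5752 and 5686.5 counts before thinning, G6pc was counted in 19.2% and 19.4% and Gckr in 28.7% and 17.2%. The tenth of hepatocyte-like cells with the most Gckr had at least 16.1 counts per 10000 in the library labelled AEG-1ΔMAC and 8.37 in the library labelled AEG-1fl/fl, against medians of 2.08 and 1.62.

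Hepatocyte-like cells were then ordered within each library by their raw counts of Cyp2e1, which is pericentral, against Cyp2f2, which is periportal, and divided into 3 zones of equal cell number, pericentral, midlobular and periportal. The order was checked with genes that it did not use. Of these, Oat, Cyp1a2, Glul, Slc1a2, Lgr5 and Rhbg were 8.78- to 40.1-fold higher in the pericentral zone, and Hal, Gls2, Hsd17b13, Arg1, Sds and Cps1 were 2.18- to 32.1-fold higher in the periportal zone. The midlobular markers followed less well. Igfbp2 was highest in the midlobular zone of both libraries, with 222 and 211 CPM, but Hamp had 194 and 235 CPM there against 269 and 482 CPM in the periportal zone, and Hamp2 7.80 and 5.71 CPM against 17.8 and 7.53 CPM. Median counts per cell were lowest in the midlobular zone, 21019 and 13230 against at least 24881 in the outer zones. Cells with fewer than 20 counts of Cyp2e1 and Cyp2f2 together made up 16.5% and 41.5% of the midlobular zone and 21.4% and 31.2% of the periportal zone. The place of many midlobular and periportal cells therefore rests on few counts. The pericentral zone began at a log2 ratio of Cyp2e1 to Cyp2f2 counts, 1 added to each, of 4.73 and 4.64. A cell with fewer than 20 such counts cannot reach that ratio, so the 0% of the pericentral zone in both libraries was fixed by the order. Shallow cells could fall only in the other zones, which ties zone to depth. The median gene had a pericentral over periportal log2 ratio of 0.32 in the library labelled AEG-1ΔMAC and 0.20 in the library labelled AEG-1fl/fl, and values relative to that median are given beside the plain ones. Alb, the albumin gene and a large part of all counts, had 96281 and 82758 CPM in the periportal zone against 53145 and 57274 CPM in the pericentral zone.

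Pck1 and Fbp1 were periportal in both libraries. These were the 2 of 7 members past 1.5-fold in the same direction in both libraries, a call made for 1.59% of 9316 genes toward the periportal zone and 6.38% toward the pericentral zone. Relative to the median gene the same call was made for 2.78% and 2.93% of genes, and it still took in both Pck1 and Fbp1.

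Pck1 rose from 1319 CPM in the pericentral zone through 1910 to 2700 CPM in the periportal zone of the library labelled AEG-1ΔMAC, and from 1700 through 2339 to 3424 CPM in the library labelled AEG-1fl/fl. The log2 ratios of pericentral over periportal were -1.03 (-1.05 to -1.01) and -1.01 (-1.03 to -0.99), and differed between the libraries by -0.024 (-0.049 to 0.0018). That difference lay within counting error. Where cells counted equally the ratios were -0.69 and -0.97. Along 10 ordered bins its level went up at every step in both libraries. Its log2 level over these 20 points was most like that of Arg1 (r = 0.99), Hal (0.99) and Aldh1b1 (0.98) among 2674 genes with at least 50 CPM. Arg1 and Hal are the periportal enzymes of the urea cycle and of histidine breakdown.

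Fbp1 rose from 996 through 1321 to 2038 CPM in the library labelled AEG-1ΔMAC and from 1031 through 1114 to 1603 CPM in the library labelled AEG-1fl/fl. The levels were close in the pericentral zones, and the log2 ratios were -1.03 (-1.05 to -1.01) and -0.64 (-0.66 to -0.62). They differed by -0.40 (-0.43 to -0.36), beyond counting error. Alb too was more periportal in the former library, with log2 ratios of -0.86 and -0.53. Most periportal check genes sloped less there, Cps1 at -1.12 and -1.66, Arg1 at -1.51 and -1.76 and Hal at -3.42 and -4.01. Gls2 (-2.72 and -3.82) and Sds (-4.46 and -5.00) did so too, while Hsd17b13 was at -2.43 and -2.39. Where cells counted equally the ratio of Fbp1 in the library labelled AEG-1fl/fl was -0.58, just within 1.5-fold. The genes most like Fbp1 along the bins were Acly (r = 0.97), Ugt1a9 (0.97) and Cfi (0.97).

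Khk was periportal in the library labelled AEG-1ΔMAC, with 673, 774 and 930.0 CPM from pericentral to periportal and a log2 ratio of -0.47 (-0.50 to -0.44). In the library labelled AEG-1fl/fl it was level, with 879, 820 and 894 CPM and a log2 ratio of -0.02 (-0.05 to 0.00). Relative to the median gene the values were -0.79 and -0.22. Tkfc, the triokinase of the fructose route, was the gene most like Khk along the bins (r = 0.94) and had log2 ratios of -0.56 and -0.01. The fructose genes Khk and Tkfc thus both sloped more steeply toward the portal side in the library labelled AEG-1ΔMAC, with differences between the log2 ratios of -0.44 and -0.54.

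**Figure D2:**
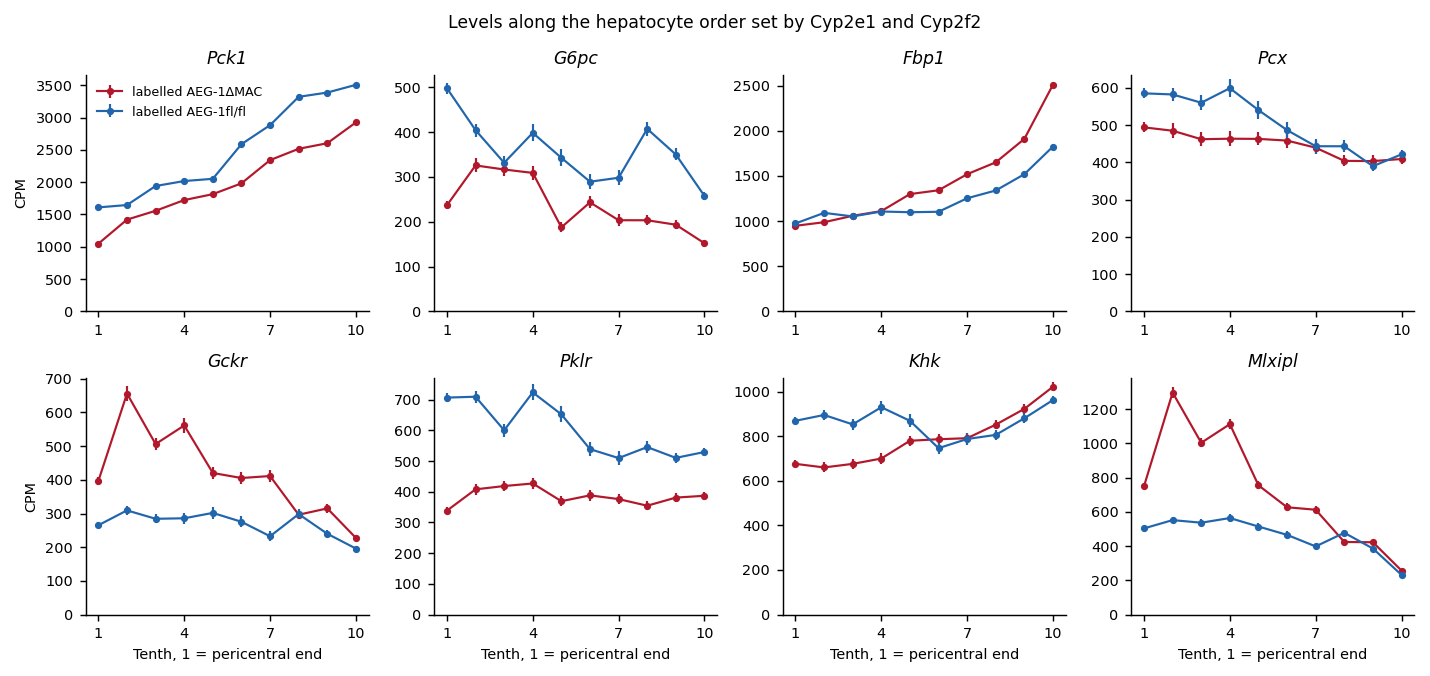
Level in CPM (vertical axis, from 0) of the 7 members and Mlxipl in 10 bins of hepatocyte-like cells ordered from the pericentral (1) to the periportal end (10), with Poisson 95% intervals, for the library labelled AEG-1ΔMAC (red) and AEG-1fl/fl (blue). Pck1 and Fbp1 climb toward the periportal end in both libraries, and Gckr and Mlxipl fall toward it most in the library labelled AEG-1ΔMAC.

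On the plain values, Gckr and Pklr leaned toward the pericentral side or were flat. Gckr had 507, 422 and 284 CPM from pericentral to periportal in the library labelled AEG-1ΔMAC and 281, 281 and 232 CPM in the library labelled AEG-1fl/fl. Its log2 ratios were 0.84 (0.79 to 0.88) and 0.28 (0.23 to 0.33), or 0.51 and 0.08 relative to the median gene. Pklr had 378, 393 and 372 CPM in the library labelled AEG-1ΔMAC, a log2 ratio of 0.02 (-0.02 to 0.07), and 692, 591 and 527 CPM in the library labelled AEG-1fl/fl, a log2 ratio of 0.39 (0.36 to 0.43). Relative to the median gene, Pklr was at -0.30 in the former and at 0.20 in the latter. Acaca, the first enzyme of fatty acid synthesis, had the profile most like that of Pklr (r = 0.91), and Hsd17b4, Slc25a10 and Gstm4 those most like that of Pcx (0.94 each).

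G6pc and Pcx, although gluconeogenic, did not share the periportal slope of Pck1 and Fbp1. G6pc had 287, 217 and 184 CPM from pericentral to periportal in the library labelled AEG-1ΔMAC and 435, 325 and 321 CPM in the library labelled AEG-1fl/fl, with log2 ratios of 0.65 (0.59 to 0.70) and 0.44 (0.40 to 0.48). Pcx had 482, 459 and 407 CPM and 581, 513 and 419 CPM, with log2 ratios of 0.24 (0.20 to 0.28) and 0.47 (0.43 to 0.50). Relative to the median gene, G6pc was at 0.32 and 0.24, and Pcx at -0.08 and 0.27, so the direction of Pcx in the library labelled AEG-1ΔMAC depended on that centring. When cells were ordered by the check genes in place of Cyp2e1 and Cyp2f2, the log2 ratio of G6pc turned to -0.17 and that of Gckr to -0.24 in the library labelled AEG-1ΔMAC, and stayed above 0, at 0.17 and 0.05, in the library labelled AEG-1fl/fl. In the library labelled AEG-1ΔMAC each of the 2 genes stayed above 0 under 8 of 9 alternative settings and was past 1.5-fold under 6. Where cells counted equally G6pc was at 1.13 there. The pericentral lean of G6pc and Gckr in that library thus depended on the genes that set the order and is not settled.

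Between the libraries, 3 of the 7 members were past 1.5-fold in hepatocyte-like cells as a whole. G6pc and Pklr were lower in the library labelled AEG-1ΔMAC, as were 3.77% of 10805 genes with at least 200 summed counts, and Gckr was higher, as were 3.47%. The median gene had a log2 ratio of 0.03. The log2 ratios of the other members were -0.32 (-0.33 to -0.31) for Pck1, 0.22 (0.21 to 0.24) for Fbp1, -0.17 (-0.19 to -0.15) for Pcx and -0.13 (-0.14 to -0.11) for Khk.

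Pklr was 1.59-fold lower in the library labelled AEG-1ΔMAC, at 380.0 CPM against 606 CPM, a log2 ratio of -0.67 (-0.70 to -0.65), and 2.89% of genes had a lower ratio. It was lower in each zone, by log2 ratios of -0.87 in the pericentral, -0.59 in the midlobular and -0.50 in the periportal zone. Its ratio stayed between -0.70 and -0.64 and past 1.5-fold under all 11 alternative settings. Pklr was the only member of which this held.

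G6pc was 1.61-fold lower in the library labelled AEG-1ΔMAC, at 228 CPM against 367 CPM, a log2 ratio of -0.69 (-0.72 to -0.66). The zones gave -0.60, -0.58 and -0.81 from pericentral to periportal. The ratio was smaller where cells counted equally (-0.49), after thinning to 5000 counts per cell (-0.42), without the tenth of cells with the most counts (-0.54) and as the mean of quintiles of depth (-0.54), and in each of these it was within 1.5-fold.

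Gckr was 1.52-fold higher in the library labelled AEG-1ΔMAC, at 397 CPM against 262 CPM, a log2 ratio of 0.60 (0.57 to 0.63). The ratio was 0.85 in the pericentral, 0.59 in the midlobular and 0.29 in the periportal zone. Mlxipl, the gene of ChREBP, was higher too, at 676 CPM against 443 CPM, a log2 ratio of 0.61 (0.59 to 0.63). Its ratio was 0.90 in the pericentral, 0.56 in the midlobular and 0.15 in the periportal zone. Scaling by the median gene took Gckr to 0.57, just within 1.5-fold.

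**Figure D3:**
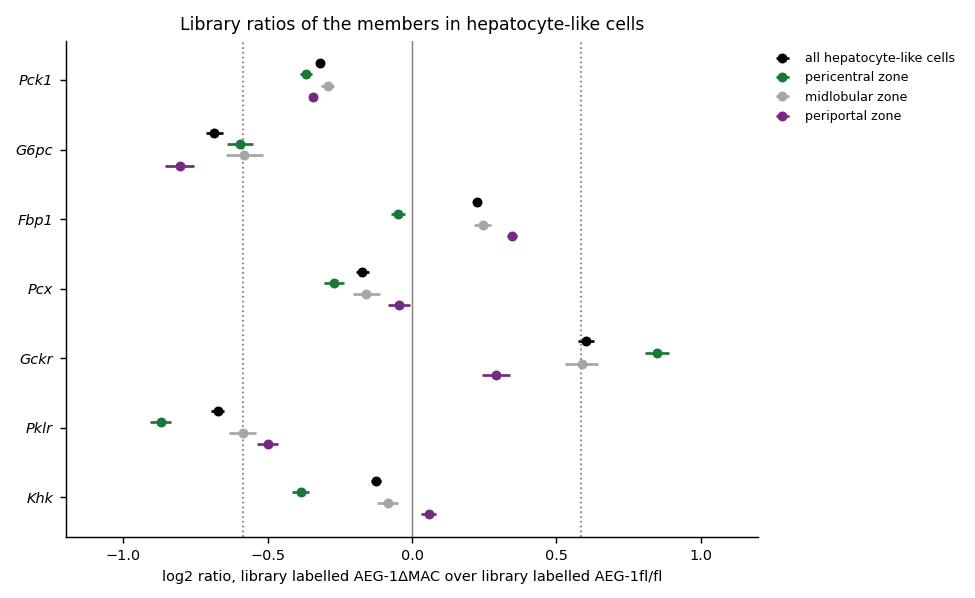
Log2 ratio of the CPM in the library labelled AEG-1ΔMAC over that in the library labelled AEG-1fl/fl (horizontal axis) for each member, in all hepatocyte-like cells (black) and in the pericentral (green), midlobular (grey) and periportal (purple) zones, with 95% intervals for counting error. Dotted lines mark 1.5-fold. G6pc and Pklr lie on the left in every zone and Gckr on the right, while Fbp1 and Khk cross 0 between zones.

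For Fbp1 and Khk the sign of the ratio between libraries differed between zones, as its size did for Gckr and Pklr above. Fbp1 was nearly level in the pericentral zones, at a log2 ratio of -0.049, and higher in the library labelled AEG-1ΔMAC in the midlobular (0.25) and periportal zones (0.35). Khk was lower in the pericentral (-0.39) and midlobular zones (-0.08) and slightly higher in the periportal zone (0.06). Pck1 was lower by about the same amount in each zone, at -0.37, -0.29 and -0.34. Pcx went from -0.27 through -0.16 to -0.04.

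Levels of several members went with the share of mitochondrial counts in the cell, which was used as a measure of cell quality and content and looked at after the first results had been seen. Hepatocyte-like cells of both libraries were cut together into quintiles of this share, at 1.70%, 2.63%, 3.33% and 4.35%. From the lowest to the highest quintile Gckr fell from 1504 through 436, 275 and 211 to 140 CPM in the library labelled AEG-1ΔMAC and from 556 through 242, 246 and 166 to 136 CPM in the library labelled AEG-1fl/fl. G6pc fell from 678 to 89.0 CPM and from 655 to 170 CPM, and Pck1 from 3447 to 992 CPM and from 3196 to 1578 CPM. Pklr too was highest in the lowest quintile, with 579 and 805 CPM against 314 and 559 CPM in the highest. Fbp1, Khk and Pcx had their lowest levels in the lowest quintile in both libraries, Fbp1 with 679 CPM against at least 1444 CPM in the other quintiles of the library labelled AEG-1ΔMAC, and with 953 CPM against at least 1280 CPM in the library labelled AEG-1fl/fl.

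The lowest mitochondrial quintile held 259 cells of the library labelled AEG-1ΔMAC and 278 of the library labelled AEG-1fl/fl. Their median of hepatocyte markers was 586 and 685 per 10000 counts, against 1526 and 1437 in the remaining hepatocyte-like cells. They made up 29.7% and 24.2% of the pericentral zone but 13.4% and 18.4% of the periportal zone. Mlxipl had its highest level in these cells too, with 3043 and 1151 CPM against 176 and 169.8 CPM in the highest quintile, and so did Nlrp6, a gene named here after its values were seen, with 469 and 244 CPM against 45.0 and 41.5 CPM. The genes most like Gckr along the zone bins were Pabpn1 (r = 0.98), Srsf11 (0.98) and Pcyt2 (0.98), of which the first 2 encode nuclear RNA-binding proteins. For G6pc they were Ttc39c (0.90), Hjv (0.89) and Rbm47 (0.89).

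**Figure D4:**
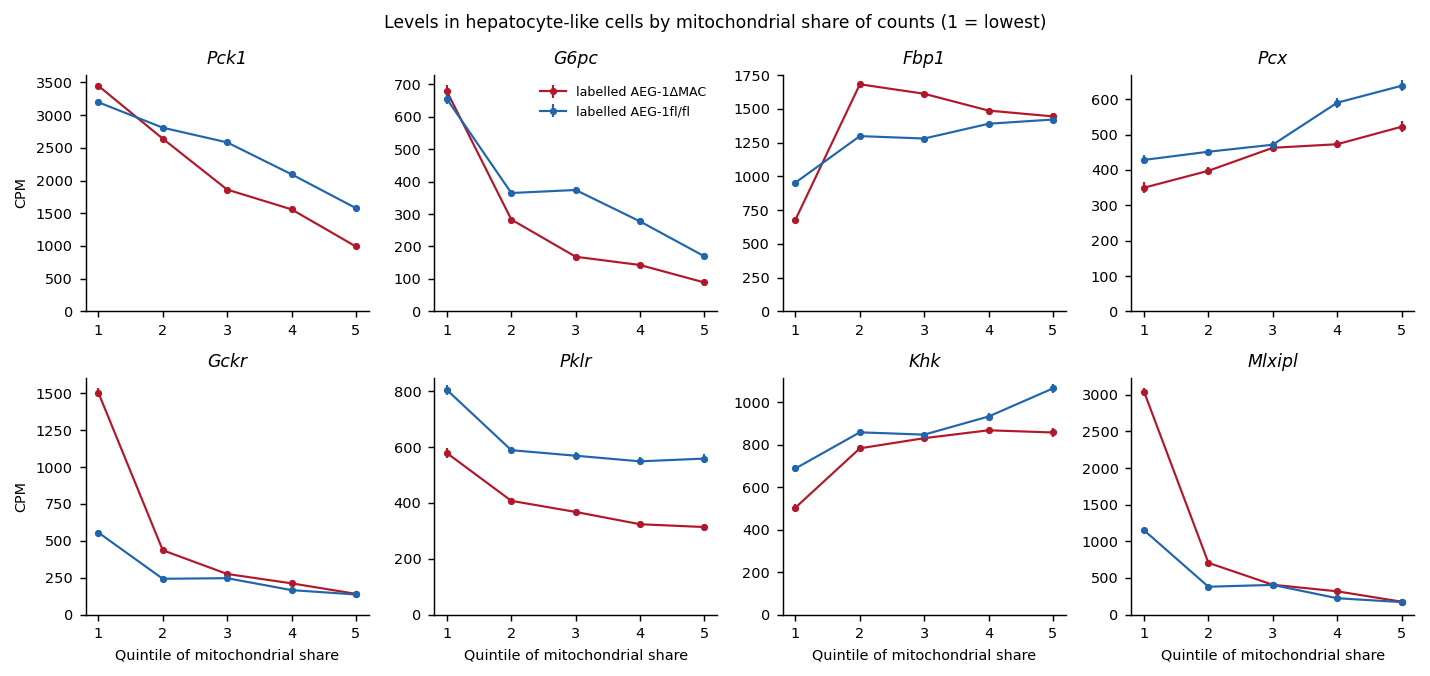
Level in CPM (vertical axis, from 0) of the 7 members and Mlxipl in hepatocyte-like cells grouped by quintiles of the mitochondrial share of counts (horizontal axis, 1 is the lowest share), with Poisson 95% intervals, for the library labelled AEG-1ΔMAC (red) and AEG-1fl/fl (blue). Gckr, G6pc, Pck1, Pklr and Mlxipl are highest in the lowest quintile and Fbp1 and Khk are lowest there. The blue line of Pklr stays above the red in all 5.

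Ratios between libraries shifted along these quintiles for Gckr, G6pc, Pck1, Fbp1 and Mlxipl and less for Pklr. The log2 ratio of Gckr was 1.44 in the lowest quintile, 0.85 in the next, and 0.16, 0.35 and 0.05 in the others. For Mlxipl it was 1.40 in the lowest quintile, 0.89 in the next, and 0.007, 0.51 and 0.05 in the others. The ratio of G6pc was 0.05 in the lowest quintile, then -0.37, -1.15, -0.96 and -0.93. Pck1 went from 0.11 to -0.67. Fbp1 was lower in the library labelled AEG-1ΔMAC in the lowest quintile, at -0.49, and at 0.37, 0.33, 0.10 and 0.02 in the others, so its direction over all cells did not hold in the lowest quintile. Pklr was lower in the library labelled AEG-1ΔMAC in all 5, by -0.48, -0.53, -0.63, -0.76 and -0.83. Without the lowest quintile the ratios were 0.43 for Gckr, within 1.5-fold, -0.80 for G6pc and -0.67 for Pklr, and the pericentral over periportal log2 ratio of Gckr in the library labelled AEG-1ΔMAC dropped from 0.84 to 0.44. The part of this cell composition in the differences between libraries was not tested.

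Among 73 other genes of glucose, fructose and glycogen metabolism, 70 had at least 200 summed counts and 7 were past 1.5-fold between libraries, 3 higher and 4 lower in the library labelled AEG-1ΔMAC, with a median log2 ratio of -0.06. Over all genes tested 7.24% were past 1.5-fold, 3.47% higher and 3.77% lower. Of 37 enzymes and transporters, Hk1 (0.63) was higher. Hk2 (-1.08), Aldoc (-1.02), Pdk4 (-0.95) and Aldoa (-0.68) were lower. Hk1, Hk2, Aldoc and Pdk4 each had at most 25.8 CPM, and Aldoa had 33.8 and 54.3 CPM. Pdk4, pyruvate dehydrogenase kinase, is known to be induced by fasting. Fbp2, the muscle isozyme of Fbp1, had only 27 and 83 counts.

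Of 20 regulators, Mlxipl alone was past 1.5-fold, at 0.61, and Sik1, a kinase induced by cyclic AMP, was at -0.57. Relative to the median gene they were at 0.58 and -0.60, so that Mlxipl fell just within 1.5-fold and Sik1 just past it. Irs1 was at 0.41. Of 9 glycogen genes, Ppp1r3c, a subunit that directs protein phosphatase 1 to glycogen, was higher, at 33.7 CPM against 14.9 CPM, a log2 ratio of 1.18 (1.07 to 1.29). Pygl, the liver glycogen phosphorylase, was at 0.39. The 4 pentose phosphate genes lay between -0.12 and 0.16. The partners of the members at the end of glucose release, the glucose transporter Slc2a2 and the glucose-6-phosphate transporter Slc37a4, were at -0.37 and -0.28 and thus lower with G6pc, but within 1.5-fold. The fructose gene Tkfc was at -0.07, Pkm at -0.07, Pck2 at -0.21 and G6pc3 at -0.16.

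**Figure D5:**
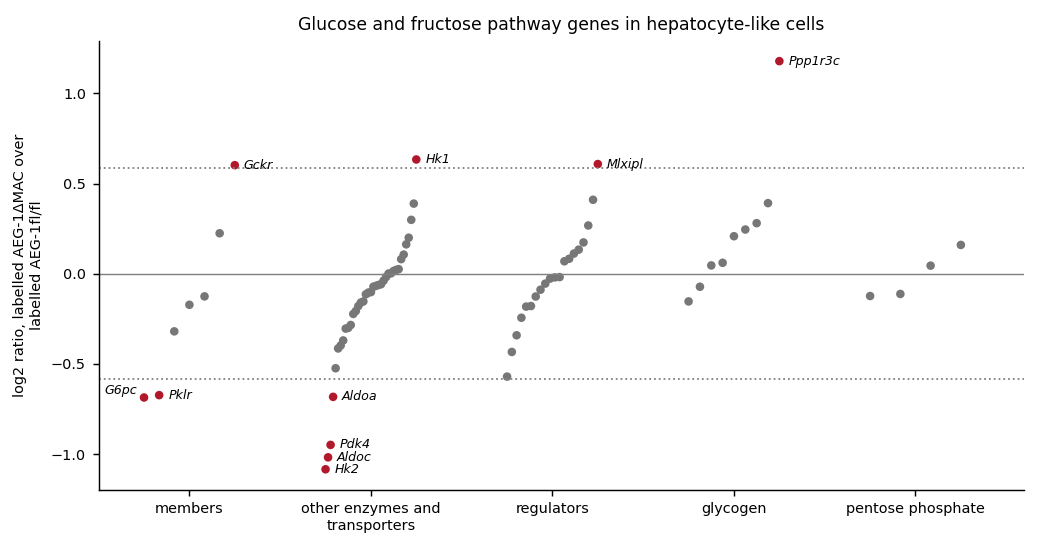
Log2 ratio of the library labelled AEG-1ΔMAC over the library labelled AEG-1fl/fl (vertical axis) in hepatocyte-like cells, 1 point per gene with at least 200 summed counts, for the members and 4 lists of other genes. Dotted lines mark 1.5-fold, and genes past it are red and named. Most points lie within 1.5-fold, with 3 of the 7 members and 7 of the 70 other genes outside.

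Lists of genes that are known to follow time of day, feeding, stress or sex were read beside the members, against the 7.24% of all genes past 1.5-fold. Of 16 clock genes, Arntl (1.83), Npas2 (2.26) and Clock (0.65) were past 1.5-fold higher in the library labelled AEG-1ΔMAC, and Per3 (-1.17), Dbp (-0.85) and Per2 (-0.67) lower. Of 15 genes that respond to fasting and insulin, Fgf21 (-1.08), Pdk4 and Angptl4 (-0.68) were lower. Within 1.5-fold, Thrsp (-0.58), Irs2 (-0.43), Cpt1a (-0.42) and Igfbp1 (-0.18) were lower. Me1 (0.53), Acly (0.38) and Fasn (0.23) were higher, and Ppargc1a was at 0.07. The list holds genes of both fasting and insulin response, so its median of -0.04 does not give the direction of either. Of 9 stress genes with at least 200 counts, Fos was higher (1.10) and Hspa1b (-0.76) and Gadd45b (-0.61) lower. All 4 Y-linked genes had similar levels in both libraries, with 59.7 and 52.3 CPM for Ddx3y, 24.3 and 21.6 CPM for Uty, 18.1 and 21.8 CPM for Kdm5d and 43.9 and 46.7 CPM for Eif2s3y. Of the 11 genes of the sex list with at least 200 counts, which include these 4, 3 were higher by 1.5-fold. They were Sult1e1, with 20.2 CPM against 0.691 CPM, Cyp2b9, with 17.0 CPM against 1.01 CPM, and Elovl3, with 89.3 CPM against 31.2 CPM. The 2 that were lower were Mup20, with 3066 CPM against 5879 CPM, and Cyp4a12a, with 95.1 CPM against 170.1 CPM. Sult1e1 and Cyp2b9, both higher, are known as female-biased genes of mouse liver. Elovl3, Mup20 and Cyp4a12a are known as male-biased ones, of which Mup20 and Cyp4a12a were lower and Elovl3 was higher. The part of feeding state, time of collection and sex-biased expression in the ratios of G6pc, Pklr and Gckr was not tested. With 1 library per genotype none of these can be told apart from the genotype label.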

How the data were processed

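The 2 single-cell libraries, 1 per genotype label, came from fixed and dissociated mouse liver. The authors deposited raw gene counts per cell barcode from Cell Ranger, aligned to mm10 (GRCm38), with no normalization. The labels name version 7.1.0 and the study's methods another. Cells were kept above a minimum of 100 genes, provided that mitochondrial counts did not exceed 10%.

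Cells were gated by summed marker counts per 10000, with limits set after the score distributions had been seen: macrophage 64, endothelial cell 48, stellate cell 48, cholangiocyte 8, T and NK cell 8, B cell 16, neutrophil 24 and dendritic cell 16, at least 3 markers detected and a lead of at least 2-fold over the next class. Hepatocyte-like cells had at least 300 hepatocyte marker counts per 10000 and every other list below 0.5 of its limit. No doublet caller was run, and cells of mixed markers were set aside.

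Counts were summed per class and divided by the class total (CPM). Ratios used genes with at least 200 summed counts and a threshold of 1.5-fold, with no test because there is 1 library per genotype. Zones used the log2 ratio of Cyp2e1 to Cyp2f2 counts, 1 added to each. For each member, the 3 genes of at least 50 CPM with the highest Pearson r over 10 bins in each of 2 libraries are named. The points share libraries, depth and order. Pathway genes past 1.5-fold and the 5 highest and 5 lowest are named. Some genes of the pathway list are not reported here. Members and lists were chosen with earlier results of these data known. Quintiles of mitochondrial share and of depth and centring on the median gene were added after seeing the data. Scripts (Python 3.11.15, NumPy 2.4.6, SciPy 1.17.1, pandas 2.3.3) were tested on simulated data. Promoters are from RefSeq, GRCm38.p6. Positions are from the GENCODE annotation.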

Additional observations from a re-analysis of the deposited data

Results flagged for a closer look

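Fbp1, Khk and Tkfc had ratios between libraries of opposite sign in the outer zones, and the difference was not tested because there is 1 library per genotype. The log2 ratio of the library labelled AEG-1ΔMAC over the library labelled AEG-1fl/fl was -0.049 in the pericentral zone and 0.346 in the periportal zone for Fbp1. For Khk it was -0.386 and 0.0577, and for Tkfc -0.369 and 0.174. Alb, with a pericentral over periportal log2 ratio of -0.86 in the former library and -0.53 in the latter, moved the same way between the zones. The periportal check genes Cps1, Arg1, Hal, Gls2 and Sds went the other way, with the steeper periportal slope in the latter.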

How the results depend on the processing

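The direction of the ratio between libraries held for all 7 members under 11 alternatives. The number past 1.5-fold was 3, or 2 under 8 of these, where Gckr or G6pc fell within it. The ranges were -0.36 to -0.26 for Pck1, -0.80 to -0.42 for G6pc, 0.07 to 0.24 for Fbp1, -0.24 to -0.15 for Pcx, 0.43 to 0.84 for Gckr, -0.70 to -0.64 for Pklr and -0.21 to -0.10 for Khk. The share of all genes past 1.5-fold was 7.24%, 12.7% with at least 20 summed counts and 17.4% with at least 1 count in each library, as thinner genes entered. In zonation, ordering cells by the check genes turned G6pc to -0.17 and Gckr to -0.24 in the library labelled AEG-1ΔMAC, and centring on the median gene turned Pcx there to -0.081. The cause was not tested. Pklr in that library and Khk in the other lay near 0 and took either sign. The number of zoned members stayed at 2, or 3 with outer quintiles, but where cells counted equally the 2 were Pck1 and G6pc. Centring changed the genes called from 594 pericentral and 148 periportal to 273 and 259. No paired analysis was possible because the labels give no replicate numbers and there is 1 library per genotype. Depth limits the small classes most, since neutrophil-like cells of the library labelled AEG-1ΔMAC had no count of G6pc or Gckr.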
